A study of Mus musculus with 12 samples.

Results

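The genes of V(D)J recombination and of the end joining that completes it were followed in 3 mouse T-ALL lines treated with PKF118-310. They are the 10 genes Rag1, Rag2, Dntt, Xrcc5, Xrcc6, Prkdc, Dclre1c, Lig4, Xrcc4 and Nhej1, taken by symbol from the 52535 genes listed in the count files, and all 10 were found. The treated cultures were T-ALL cells of lines 240, 242 and 352 exposed to PKF118-310, a small molecule that blocks the interaction of β-catenin with Tcf proteins, and the control cultures were the same 3 lines without the drug. The study describes its controls as placebo-treated. All cultures, controls included, carried an activated Akt2 and a Dlx5 transgene, both driven by the T cell promoter Lck, and each line came from the thymic tumour of 1 mouse. Each line had 1 library per group, so that 3 PKF118-310 libraries were compared with 3 control libraries. Tests of the drug rest on how its effect varied among these 3 lines, or between lines 240 and 352 where only those were fitted. The tests also draw on other genes for the variance of a gene. Their p-values and standard errors (SE) therefore do not measure the spread of that gene alone.

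V(D)J recombination assembles antigen receptor genes in developing lymphocytes. The RAG1 and RAG2 proteins together cut the DNA beside receptor gene segments and leave hairpin ends on the coding side. The hairpins are bound by Ku, opened by Artemis with the kinase DNA-PKcs, altered by terminal transferase, which adds bases without a template, and sealed by DNA ligase IV with its partners XRCC4 and XLF. In the thymus Rag1, Rag2 and Dntt are limited to immature T cells, while the end joining genes are used by nearly every cell to mend broken chromosomes.

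The libraries held between 604984 and 13766638 counts. The PKF118-310 library of line 242 stood apart from the other 5. It had the fewest counts and the highest share from mitochondrial genes, 11.8%, against 2.56% and 2.91% in the PKF118-310 libraries of lines 352 and 240 and 1.84% to 3.10% in controls. It also had counts in 6584 of the 32809 genes that were at 0 in all 3 controls, and these took 3.59% of its counts, compared with 0.15% in PKF118-310 line 240 and 0.0522% in PKF118-310 line 352. The tests are given with and without line 242, while means and correlations over all libraries include this library. The labels call the cells of all 3 lines double-positive, and all 12 double-positive thymocyte markers looked for had counts in at least 1 library. Cd4 had 40.7 CPM in PKF118-310 line 352 and 56.4 CPM in control line 352, against 405 CPM in PKF118-310 and 608 CPM in control line 242, and 473 CPM in PKF118-310 and 417 CPM in control line 240. CPM are counts scaled to a common library size with TMM. Of the markers of other cells, the 8 B lineage genes summed to between 1.75 and 147 CPM in PKF118-310 libraries and between 0.31 and 0.74 CPM in controls. The upper value came from the PKF118-310 library of line 242, in which Pax5 had 79.8, Ebf1 50.1 and Igll1 13.0 CPM, Cd79a and Ms4a1 1.86 CPM each, and Cd79b was at 0. Pax5 had 2.23 and 1.12 CPM in PKF118-310 lines 240 and 352, against 0.25 and 0 CPM in their controls, and was called higher in the fit of those lines (edgeR adjusted p = 0.0412). Summed myeloid markers ranged from 11.2 to 59.4 CPM with PKF118-310 and from 10.4 to 44.0 CPM in controls, and stromal and epithelial ones from 45.9 to 78.0 and from 44.9 to 71.0 CPM. Itgam made up most of each myeloid sum, and Pecam1 most of the stromal sum except in PKF118-310 line 242. There Col1a1 had 26.0, Epcam 20.4, Pecam1 18.6, Col3a1 7.42 and Col1a2 5.57 CPM, and the myeloid genes Mpo 7.42, Adgre1 5.57, Cd14 3.71 and Csf1r 1.86 CPM, while Lyz2 and Elane were at 0 in every library. The 5 erythroid markers summed to at most 0.32 CPM, with Hbb-bs and Hbb-bt at 0 throughout. The part of such RNA in the results was not tested.

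The upstream sequences of the 3 lymphoid genes and of Dclre1c are shown because Rag2 differed between lines and Dntt with the drug, and because the drug acts on Tcf proteins, whose core binding letters were looked for. Each is the 250 bases before the RefSeq start site, printed 5′ to 3′ in the direction of the gene (RefSeq on GRCm38.p6, the mm10 assembly). The sequences lie at chr2:101649533-101649782 on the minus strand, chr2:101624462-101624711 on the plus strand, chr19:41029025-41029274 on the plus strand and chr2:3423881-3424130 on the plus strand. For Rag1, Rag2 and Dntt the capitals mark CANNTG, the general letters of an E-box, the kind of site bound by the E proteins Tcf3 and Tcf12. For Dclre1c the capitals mark CTTTGA, the core of a Tcf/Lef site.
Rag1: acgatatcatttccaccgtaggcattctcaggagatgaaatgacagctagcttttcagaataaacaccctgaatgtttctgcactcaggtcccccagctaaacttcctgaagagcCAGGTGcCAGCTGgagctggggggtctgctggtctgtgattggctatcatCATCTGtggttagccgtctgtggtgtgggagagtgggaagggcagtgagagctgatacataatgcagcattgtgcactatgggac
Rag2: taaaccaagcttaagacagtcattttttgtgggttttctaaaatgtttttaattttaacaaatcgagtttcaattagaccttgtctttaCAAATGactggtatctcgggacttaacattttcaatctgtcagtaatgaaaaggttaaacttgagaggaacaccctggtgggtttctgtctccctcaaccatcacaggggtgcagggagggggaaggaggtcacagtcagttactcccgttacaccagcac
Dntt: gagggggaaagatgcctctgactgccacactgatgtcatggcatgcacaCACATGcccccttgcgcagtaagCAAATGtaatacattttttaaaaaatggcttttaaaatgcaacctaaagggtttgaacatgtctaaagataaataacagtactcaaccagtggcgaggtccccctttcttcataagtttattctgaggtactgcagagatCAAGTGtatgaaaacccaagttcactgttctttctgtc
Dclre1c: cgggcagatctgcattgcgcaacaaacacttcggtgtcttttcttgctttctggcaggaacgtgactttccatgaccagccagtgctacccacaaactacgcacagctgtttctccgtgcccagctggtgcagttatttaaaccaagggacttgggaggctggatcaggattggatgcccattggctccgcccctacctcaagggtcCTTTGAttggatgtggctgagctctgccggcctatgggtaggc
Of the 9 genes with a RefSeq sequence, 1 held CTTTGA on either strand, namely Dclre1c, 43 bases before its start. CTTTGA was present in 13.8% of 32851 upstream windows of the same length. Rag1 held 3 E-boxes, 135, 128 and 85 bases before its start, Dntt held 3, the nearest 38 bases before its start, and Rag2 held 1, 161 bases before its start. CANNTG, which reads as CANNTG on both strands, was present in 66.2% of all windows. It also stood in the windows of Xrcc5, Xrcc6, Lig4 and Nhej1 and, left unmarked above, 2 times in that of Dclre1c, but not in that of Xrcc4. No CANNTG overlapped the CTTTGA of Dclre1c. A match of letters is a description of the sequence and not evidence of binding.

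Rag1 encodes the catalytic subunit of the recombinase. The gene lies on chromosome 2 at 101638282 to 101649501 (mm10, minus strand). It had 1098, 239 and 173 CPM in PKF118-310 lines 240, 242 and 352, against 1097, 1448 and 337 CPM in the controls of the same lines. Line 240 was thus the same in both cultures, line 242 was far lower with the drug, and line 352 was low in both and lower with the drug. The log2 ratio of PKF118-310 over control was 0.00 in line 240 (95% counting interval -0.06 to 0.07), -2.60 in line 242 (-2.86 to -2.34) and -0.96 in line 352 (-1.03 to -0.89). Such intervals cover counting error only, and in bulk RNA fewer cells with a transcript and less of it per cell cannot be told apart. The line 242 ratio rests on 129 Rag1 counts in the shallow library.

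Rag2, which encodes the partner that binds modified histones, lies next to Rag1 on the opposite strand, at 101624718 to 101632529 of chromosome 2. It had 53.9, 5.57 and 4.75 CPM in PKF118-310 lines 240, 242 and 352, against 65.5, 5.66 and 8.41 CPM in the controls. Line 240 was therefore high in both cultures and the other lines were low in both. The log2 ratio within lines was -0.28 in line 240 (-0.57 to 0.00) and -0.79 in line 352, where the counting interval was -1.28 to -0.38. In line 242 the PKF118-310 library held 3 Rag2 counts and the control 18, and the interval of the ratio, -2.43 to 1.75, leaves its direction undetermined at this depth.

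The balance between the recombinase genes differed widely between lines. Rag1 counts per Rag2 count were 20.4 in PKF118-310 line 240 (95% Clopper-Pearson interval 17.5 to 23.9) and 16.7 in control line 240 (14.8 to 19.0). In line 352 they were 36.4 with PKF118-310 (28.6 to 47.0) and 40.0 in the control (33.2 to 48.6). In line 242 they were 43.0 with PKF118-310 (14.4 to 211) and 256 in the control (162 to 432). The control value rests on 18 Rag2 counts, 14 in lane 1 and 4 in lane 2, a difference that the interval leaves out. Line 242 in its control state therefore had the highest Rag1 level of all 6 libraries together with a Rag2 level near that of line 352. Per kb of exon, Rag1 remained above Rag2 in every library, by 8.68 times in control line 240 to 132 times in control line 242.

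**Figure D1:**
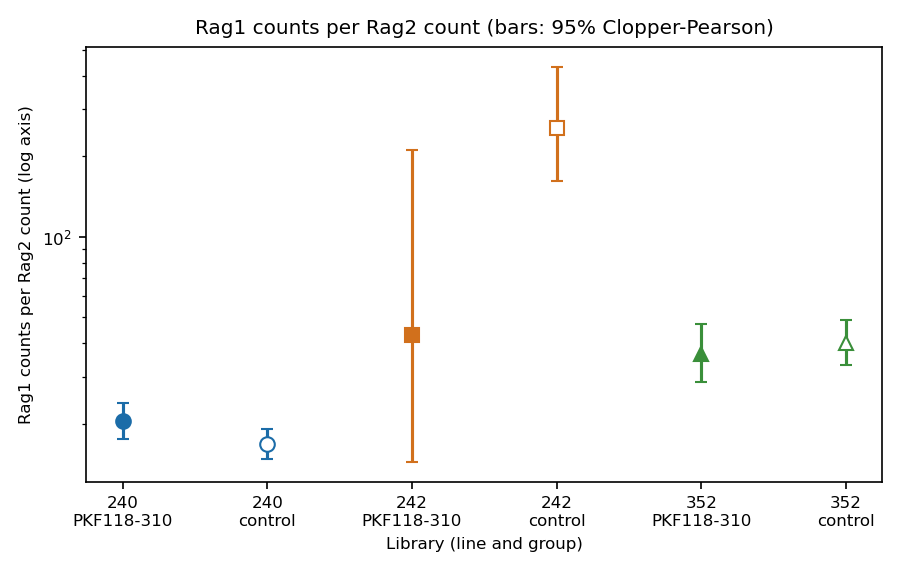
Rag1 counts per Rag2 count (log axis) in each library, PKF118-310 as filled and control as open symbols, with 95% Clopper-Pearson bars. Control line 242 stands at 256 on 18 Rag2 counts, above the 16.7 to 43.0 of the other libraries. The bar of PKF118-310 line 242 rests on 3 Rag2 counts, and the bars leave lane differences out.

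Dntt, the gene of terminal transferase, on chromosome 19 at 41029275 to 41059523, was the gene with the clearest difference between groups. It had 466, 243 and 121 CPM in PKF118-310 lines 240, 242 and 352, against 585, 573 and 548 CPM in the controls. The controls were nearly equal, with a highest to lowest ratio of 1.07, and every PKF118-310 library was below every control. The decline differed in size between lines, with log2 ratios of -0.33 in line 240 (-0.42 to -0.23), -1.24 in line 242 (-1.50 to -0.98) and -2.18 in line 352 (-2.26 to -2.11). The mean was 277 ± 175 CPM with PKF118-310 and 569 ± 18.9 CPM in controls (SD, n = 3 each). Of the 9 genes kept in the fit of 3 lines, 1, Dntt, had all PKF118-310 libraries below all controls, an arrangement found in 2.87% of all genes kept. The reverse arrangement was seen in 0 of 9 and in 3.29% of all genes kept. Nhej1 did not pass the filter on low counts in that fit.

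**Figure D2:**
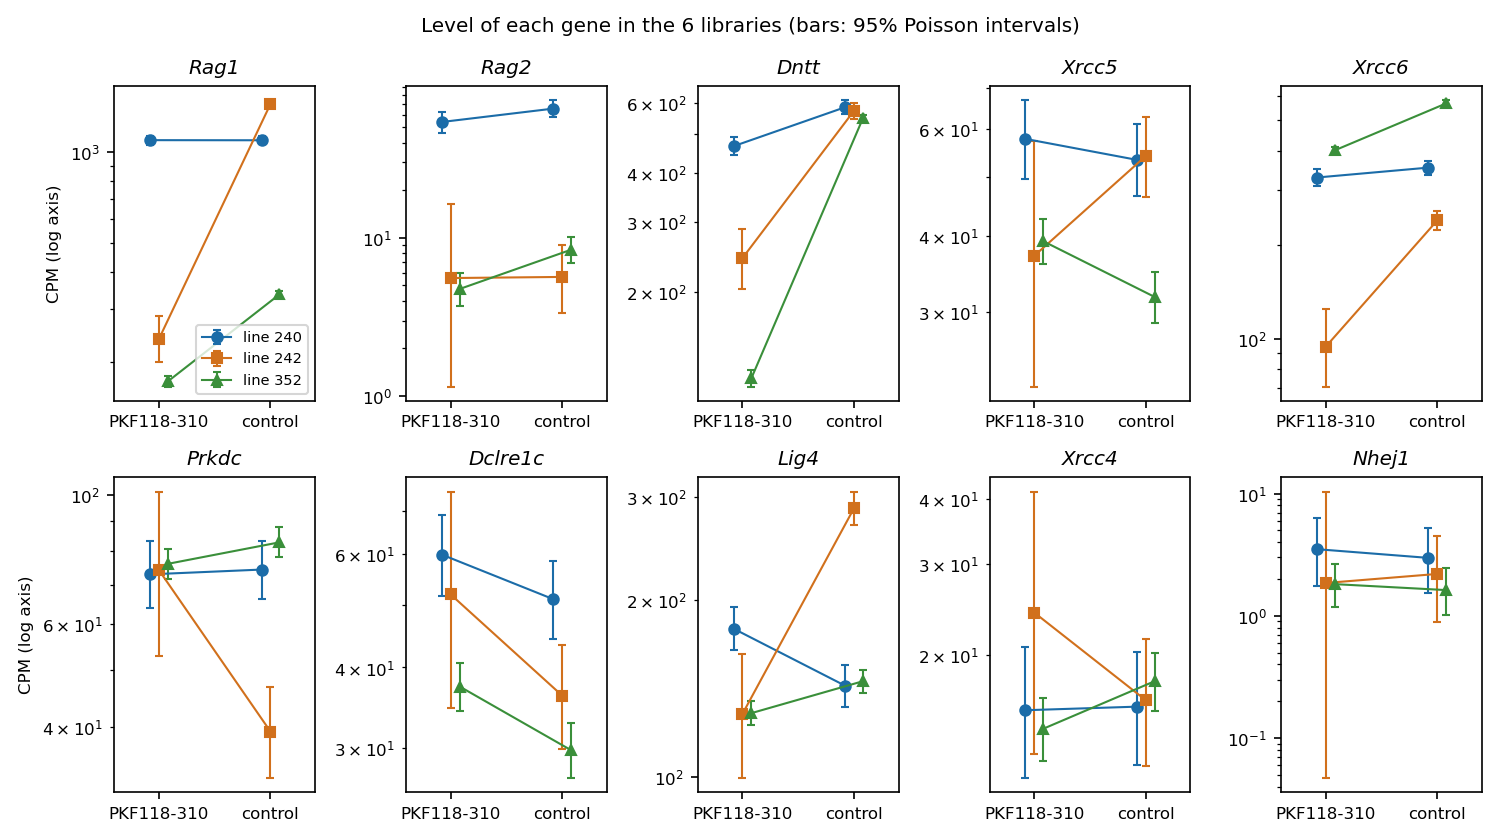
CPM of each gene (log axis, different range per panel) in PKF118-310 and control cultures, with lines joining the 2 libraries of a line and 95% Poisson bars. Dntt fans out with PKF118-310 to 466, 243 and 121 CPM while its controls sit together at 548 to 585 CPM, and Rag2 is high in line 240 only.

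Among the DNA end binding genes, Xrcc6, which encodes Ku70, had 328, 94.7 and 401 CPM in PKF118-310 lines 240, 242 and 352, against 353, 240 and 566 CPM in the controls. It was lower with PKF118-310 in each line, and the log2 ratios were -0.11 (-0.22 to 0.01), -1.34 (-1.78 to -0.93) and -0.50 (-0.55 to -0.45). Xrcc5, which encodes the Ku80 partner, had 57.7, 37.1 and 39.3 CPM with PKF118-310, against 53.3, 54.1 and 31.8 CPM in the controls. Its directions were mixed, with a log2 ratio of 0.30 in line 352 (0.12 to 0.49) and intervals that spanned 0 in lines 240 and 242. A single draw thinned to equal depth gave -0.245 in line 352 on 21 and 25 counts, too few to set a direction. Although the 2 proteins act as a heterodimer, control levels per kb of exon were 86.3 ± 37.1 CPM for Xrcc6 and 18.2 ± 4.95 CPM for Xrcc5 (SD, n = 3). Exons of Xrcc6 overlap those of Desi1 on the opposite strand over 344 bases, 7.7% of its exon length, and the strand setting of the counting is not given in the sources used here.

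Prkdc encodes DNA-PKcs, the kinase recruited by Ku, and is the gene altered in scid mice. It had 73.0, 74.2 and 76.1 CPM in PKF118-310 lines 240, 242 and 352, against 74.4, 39.3 and 82.9 CPM in the controls. The control of line 242 was thus the sample that stood apart, and the log2 ratios were -0.03 (-0.28 to 0.23), 0.91 (0.37 to 1.44) and -0.12 (-0.24 to -0.00059). Dclre1c, which encodes the hairpin opening nuclease Artemis, had 60.0, 52.0 and 37.4 CPM with PKF118-310, against 51.1, 36.2 and 29.7 CPM in the controls. Dclre1c was higher with PKF118-310 in all 3 lines, by log2 ratios of 0.23, 0.52 and 0.33, as 1 of the 9 genes kept, while 15.9% of all genes kept shared that pattern. Its counting interval cleared 0 in line 352 alone (0.14 to 0.52). Dntt, Xrcc6 and Rag2 had negative ratios in all 3 lines, 3 of 9, against 17% of all genes kept, but the Rag2 ratio of line 242 was -0.02 on 3 counts and its direction is undetermined.

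The ligation genes had no common direction. Lig4, which encodes DNA ligase IV, had 179, 128 and 129 CPM in PKF118-310 lines 240, 242 and 352, against 143, 286 and 146 CPM in the controls. Its log2 ratio was 0.32 in line 240 (0.15 to 0.49), -1.16 in line 242 (-1.54 to -0.81) and -0.18 in line 352 (-0.27 to -0.09), so that the PKF118-310 libraries of lines 242 and 352 were at similar levels although their controls were unequal. Xrcc4, whose protein stabilises ligase IV, had 15.6, 24.1 and 14.4 CPM with PKF118-310, against 15.9, 16.4 and 17.8 CPM in the controls. The 13 counts of the PKF118-310 library of line 242 gave a wide interval for Xrcc4 there, -0.44 to 1.46. Nhej1, which encodes XLF, was the least abundant of the 10 genes, with 11, 1 and 26 counts in PKF118-310 lines 240, 242 and 352 and 12, 7 and 22 counts in the controls. Its levels were between 1.62 and 3.51 CPM, and its intervals spanned 0 in each line.

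**Figure D3:**
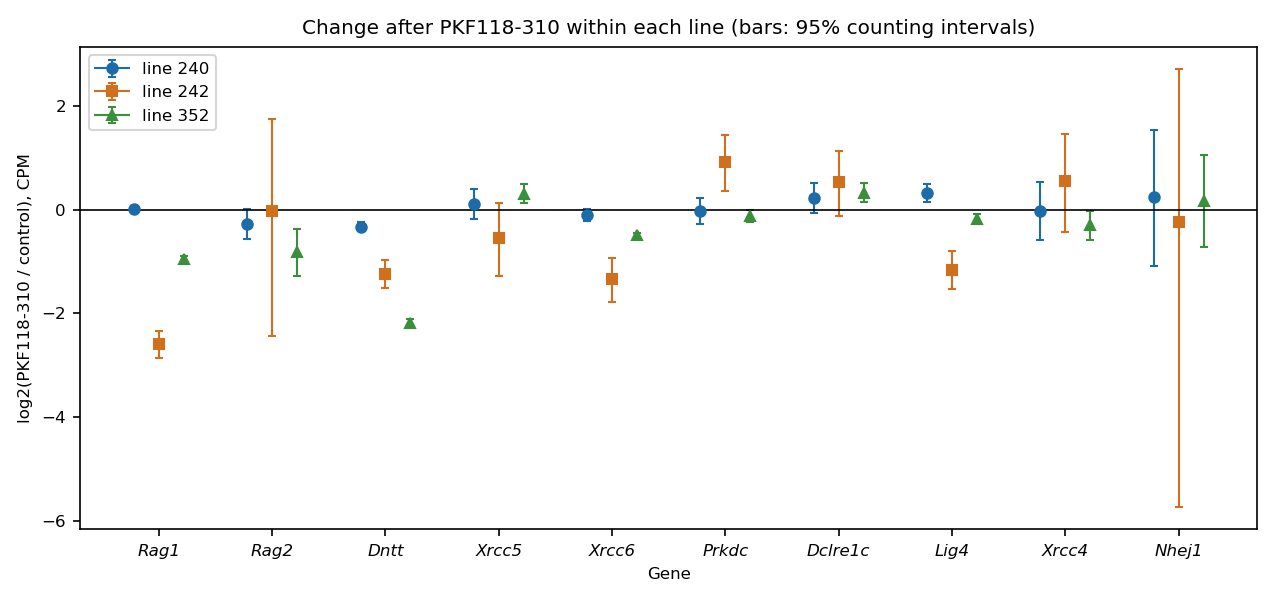
Log2 ratio of PKF118-310 over control CPM within each line for the 10 genes, with 95% counting intervals. Dntt is below 0 in all 3 lines (-0.33, -1.24 and -2.18), Lig4 lies on both sides of 0, and the bars of line 242 are the widest.

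Ranked by control level per kb of exon, the order was Dntt, Rag1, Xrcc6, Lig4, Xrcc5, Rag2, Prkdc, Dclre1c, Xrcc4 and Nhej1. The means were 248 ± 8.23 CPM per kb for Dntt and 145 ± 86.0 for Rag1 (SD, n = 3), and then 36.9 ± 15.8 for Lig4. Rag2 averaged 7.75 ± 9.87 CPM per kb and Prkdc 4.97 ± 1.75. Dclre1c had 4.19 ± 1.18, Xrcc4 3.96 ± 0.24 and Nhej1 2.03 ± 0.61 CPM per kb. The SD of Rag1 spanned the mean of Xrcc6, and that of Rag2 the means of the 4 genes ranked under it. The order of these neighbours is therefore not settled by the means. Control Rag2 had 19.1 CPM per kb in line 240, 1.65 in line 242 and 2.46 in line 352. It stood above Prkdc, Dclre1c and Xrcc4 in line 240 and under each of them in lines 242 and 352. Dntt and Xrcc4 varied least between control lines, with highest to lowest ratios of 1.07 and 1.12, and Rag2 varied most, with a ratio of 11.6, followed by Rag1 with 4.30.

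The effect of PKF118-310 over the 3 lines was then tested with edgeR's quasi-likelihood test, with line as a block. None of the 9 genes kept passed an adjusted p of 0.05 (0 of 9), and neither did any of the 10331 genes tested (0%). At an unadjusted p below 0.05 there were 570 genes, of which 1, Dntt, belonged to the recombination set. With DESeq2 45 genes were called, with the edgeR likelihood ratio test 85 and with limma voom and library weights 801, and none of these calls was among the 9. Dntt had a log2 fold change of -1.25 ± 0.39 (SE, edgeR adjusted p = 0.842), Rag1 of -1.14 ± 0.53 and Xrcc6 of -0.61 ± 0.27. Rag2 had -0.48 ± 0.25 and Dclre1c 0.35 ± 0.16 on the same scale. The median over the 9 genes was -0.30, beside 0.00 over all genes tested.

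Without line 242, Dntt fell and no other gene of the set passed the test. In the fit of lines 240 and 352, Dntt had a log2 fold change of -1.27 ± 0.30 (SE, edgeR adjusted p = 0.0179). Its ratios within those lines, -0.33 and -2.18, lay further apart than this SE, which draws on other genes as well. The call of Dntt was 1 among 10 genes, compared with 10.9% of the 11760 genes tested in either direction and 5.92% called lower. None of the 10 was called higher, beside 5.01% of all genes. Rag1 had -0.48 ± 0.18 (edgeR adjusted p = 0.114), Rag2 -0.51 ± 0.19 (0.108) and Xrcc6 -0.31 ± 0.12 (0.134). Dclre1c had 0.28 ± 0.13 (edgeR adjusted p = 0.209), and the remaining genes lay between -0.20 for Xrcc4 and 0.22 for Xrcc5. The median over the 10 genes was -0.15, beside -0.01 over all genes. The Dntt call did not hold when libraries were scaled by their totals (adjusted p = 0.0550), when at least 10 counts were required in every library (0.0822), in DESeq2 (0.541) or without the line block (0.9997). Over all alternatives run the edgeR, DESeq2 and limma adjusted p of Dntt ranged from 9.28e-30 to 0.9997 and its log2 fold change from -1.345 to -0.96.

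**Figure D4:**
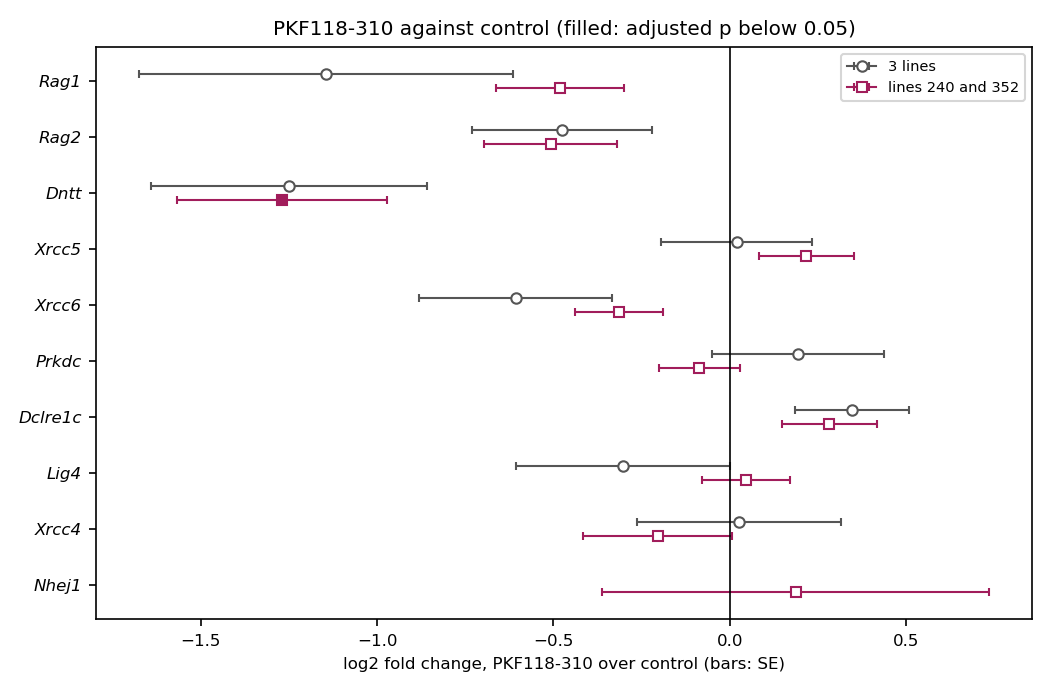
Log2 fold change of PKF118-310 over control with its SE in the fit of 3 lines (grey circles) and of lines 240 and 352 (purple squares), filled where the edgeR adjusted p is below 0.05. Dntt in the fit of lines 240 and 352, at -1.27, is the filled symbol, and Nhej1 has no value in the fit of 3 lines.

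Differences between the lines were larger than those between treatments for Rag2. In the edgeR test over the 3 lines, with treatment as a covariate, Rag2 was the 1 of 9 genes called (adjusted p = 0.0156), and 5.32% of all genes were. Line 242 was below line 240, with a log2 difference of -3.53 ± 0.36 (edgeR adjusted p = 0.0475), a contrast in which 0.397% of genes were called. Line 352 was below line 240, with a difference of -3.22 ± 0.29 (edgeR adjusted p = 0.0146, 4.38% called). Between lines 352 and 242 Rag2 differed by 0.31 ± 0.37 (edgeR adjusted p = 0.613, 7.24% called), within its error. The call of Rag2 was lost without line 240 (edgeR adjusted p = 0.933). Rag1 had an edgeR adjusted p of 0.163 over the 3 lines, and 1.23e-06 without line 242.

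Lines 352 and 240, the deeper pair, were also fitted alone. There 6 of the 10 genes differed between the cultures of these lines, beside 44.7% of all genes tested (edgeR, adjusted p below 0.05). Rag2 was lower in line 352, with a log2 difference of -3.20 ± 0.19 (edgeR adjusted p = 3.85e-08), and so was Rag1 with -2.18 ± 0.19 (1.23e-06). Also lower were Dntt with -0.995 ± 0.30 (edgeR adjusted p = 0.0156), Dclre1c with -0.72 ± 0.14 (8.58e-04) and Xrcc5 with -0.64 ± 0.14 (0.00203). Xrcc6 was higher in line 352 by 0.50 ± 0.13 (edgeR adjusted p = 0.00619), opposite to its Ku partner. Thus 5 of the 10 genes were lower in line 352, as were 19.9% of all genes, and 1 was higher, as were 24.8%. The 4 that did not pass were Prkdc (0.12 ± 0.12), Lig4 (-0.22 ± 0.12), Xrcc4 (0.04 ± 0.22) and Nhej1 (-0.90 ± 0.56). The control libraries of Dntt were alike in the 2 lines, at 548 CPM in line 352 and 585 CPM in line 240, and far apart in the PKF118-310 libraries, at 121 CPM in line 352 and 466 CPM in line 240. The Dntt call was lost in DESeq2 (adjusted p = 0.412), with at least 10 counts in every library (0.0747) and without the treatment term (0.485). Without the treatment term Xrcc5 (edgeR adjusted p = 0.0557) and Xrcc6 (0.106) also lost theirs, and Xrcc5 did in DESeq2 (0.0509).

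When the PKF118-310 library of line 242 alone was left out, an alternative chosen after seeing the data, 7 of the 10 genes differed over the 3 lines and so did 56.7% of all genes tested. That fit takes the drug effect of line 242 from the other lines and its lone control as no more variable than they are. Rag2 (edgeR adjusted p = 4.11e-06) was joined by Rag1 (4.63e-05), Xrcc6 (8.38e-04), Lig4 (9.49e-04), Prkdc (0.00216), Dclre1c (0.00374) and Xrcc5 (0.00377). Lig4 in line 242 was above line 240 by 0.89 ± 0.16 (edgeR adjusted p = 0.00612) and Prkdc was below it, with a log2 difference of -0.92 ± 0.17 (0.00652).

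**Figure D5:**
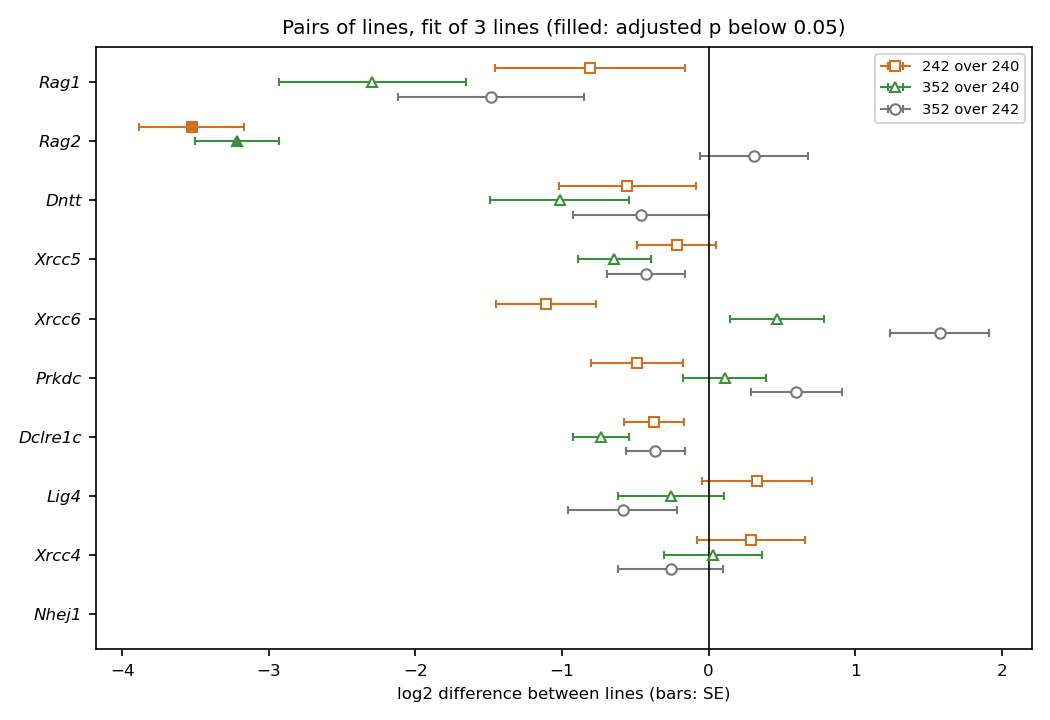
Log2 differences between pairs of lines with their SE from the fit of 3 lines, filled where the edgeR adjusted p is below 0.05. Rag2 in 242 over 240 (-3.53) and in 352 over 240 (-3.22) are the filled symbols, and Nhej1 was not tested.

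The genes that flank or regulate the Rag locus were examined next. Traf6, a signalling gene next to Rag1, had 208, 213 and 83.5 CPM in PKF118-310 lines 240, 242 and 352, against 249, 313 and 96.1 CPM in controls. It differed between the 3 lines (edgeR adjusted p = 0.0342) and was lower in line 352 than in line 240, with a log2 difference of -1.34 ± 0.10 (3.96e-07). B230118H07Rik, an overlapping neighbour, was higher in line 352 than in line 240 by 1.30 ± 0.26 (edgeR adjusted p = 0.00136). Its exons share 80 bases with Rag1 on the same strand and 208 bases with Rag2 on the opposite strand, and how reads on shared bases were counted is not given. None of the 3 neighbours tested was called for PKF118-310 in either fit.

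Among 15 transcription factors with known roles at the Rag genes, 3 fell with PKF118-310 in lines 240 and 352 and none rose (edgeR), beside 5.92% of all genes lower and 5.01% higher. They were Ets1 (log2 fold change -0.63 ± 0.13, edgeR adjusted p = 0.00947), Foxp1 (-0.39 ± 0.11, 0.0399) and Ikzf1 (-0.41 ± 0.12, 0.0420), and the list median was -0.18. In line 242 Foxp1 went the other way, with 126 CPM with PKF118-310 and 73.6 CPM in the control, while Ets1 and Ikzf1 were lower there too. None of the 15 passed over the 3 lines. Between lines 352 and 240 there were 5 higher and 5 lower, beside 24.8% and 19.9% of all genes. Among the strongest were the forkhead factor Foxo3 (-1.63 ± 0.11, edgeR adjusted p = 1.04e-07), the E protein inhibitor Id3 (2.78 ± 0.25, 1.94e-06) and Gata3 (1.08 ± 0.11, 6.96e-06). The general E-box letters CANNTG stand in the Rag1, Rag2 and Dntt windows among others, and whether the E proteins Tcf3 and Tcf12 bind there was not tested. Tcf3 and Tcf12 had log2 fold changes of -0.02 ± 0.11 and -0.09 ± 0.13 with PKF118-310 in lines 240 and 352. They were not called.

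Of the 8 measured RAG cofactor and chromatin genes, 1 fell with PKF118-310 in lines 240 and 352, namely Ing2, a histone binding protein (-0.70 ± 0.16, edgeR adjusted p = 0.0142), and 4 were lower in line 352 than in line 240. Over all genes 5.92% fell with the drug and 19.9% were lower in line 352. The 4 genes were Hmgb1, which bends DNA for the recombinase (-1.20 ± 0.12 on the log2 scale, edgeR adjusted p = 6.96e-06), Kpna2 (-0.72 ± 0.12), Ing2 (-0.53 ± 0.16) and Cul4a (-0.33 ± 0.12). Of 12 break sensing genes 1 rose and 1 fell with the drug in lines 240 and 352, beside 5.01% and 5.92% of all genes. Atm, the kinase that signals double-strand breaks, rose by 0.53 ± 0.11 (edgeR adjusted p = 0.00823), with 147 and 109 CPM in PKF118-310 lines 240 and 352 against 100 and 76.9 CPM in the controls. In line 242 Atm had 55.7 CPM with PKF118-310 and 83.6 CPM in the control, the other direction. H2afx, the histone that marks breaks, fell by 0.44 on the log2 scale (SE 0.13, edgeR adjusted p = 0.0400), and it differed between the 3 lines (0.0466).

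Accessory end joining genes had 2 of 9 lower with PKF118-310 in lines 240 and 352 and none higher, beside 5.92% and 5.01% of all genes. They were the helicase gene Wrn (-0.48 ± 0.13, edgeR adjusted p = 0.0307) and the scaffold gene Aplf (-0.66 ± 0.20, 0.0499). Both genes went the other way in line 242, where Wrn had 55.7 CPM with PKF118-310 and 31.4 CPM in the control. Their log2 fold changes in the fit of 3 lines were -0.13 ± 0.30 for Wrn and 0.015 ± 0.56 for Aplf. The polymerase gene Polm was higher in line 352 than in line 240 (1.18 ± 0.27 on the log2 scale, edgeR adjusted p = 0.00303). Of 6 alternative end joining genes, Rbbp8, which starts end resection, was the 1 that fell (-0.50 ± 0.12, edgeR adjusted p = 0.0169), and Rbbp8, Polq and Fen1 were lower in line 352, with the same background of 5.92% and 19.9%. Polm and Polb, relatives of Dntt in polymerase family X, had log2 fold changes of 0.46 ± 0.25 and 0.45 ± 0.15 with PKF118-310 in lines 240 and 352, positive where that of Dntt was negative, and neither passed the test. In the fit of 3 lines no gene of any of these lists was called, as for all genes (0%).

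Genes with the profile closest to Rag1 over the 6 libraries were Pola1 (Pearson r = 0.997), Slfn3 (0.995) and Tuba1b (0.994), out of 8555 genes averaging at least 10 CPM. Rag2 was followed most closely by Ppp2r5d (r = 0.999), Rnf167 (0.988) and Txnrd2 (0.980). Dntt was followed by Cenpe (r = 0.981), Tacc3 (0.971) and Igsf3 (0.965). These are the extremes of many correlations over 6 points that share lines and depth, and they are a description. Among the set itself, Rag1 and Dntt had r = 0.81, Rag1 and Rag2 0.61 and Lig4 and Prkdc -0.92 over the same 6 libraries.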

How the data were processed

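Poly(A) RNA was sequenced from 6 libraries, 3 per group, and the authors deposited 12 files of raw counts, 1 for each library and lane. The authors made the counts with tools that the submitters' processing notes name as HISAT2 and HTSeq, on mm10. The study's methods name TopHat instead. The kit was stranded. Tool versions and the strand setting of the counting: not given in the sources used here. Lanes are runs of 1 library per the labels, so the 2 lanes were summed, although a description in the study speaks of separate cultures. Over all genes with at least 10 counts, lanes differed by 0.98 to 1.02 times sampling variance in lines 240 and 242 and by 2.01 and 2.05 times in line 352. Over such genes of the recombination set the values were 1.34 to 1.92 in lines 240 and 242 and 2.33 and 2.35 in line 352. Counting intervals leave such lane differences out. Total counts per library are 3160824, 604984 and 13766638 with PKF118-310 and 4031144, 3354980 and 13221186 in controls (lines 240, 242 and 352). At these depths 3 counts amount to 5.57 CPM in PKF118-310 line 242 and to 0.21 CPM in PKF118-310 line 352.

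Genes were filtered with filterByExpr, scaled with TMM and tested with edgeR 4.0.16 (R 4.3.3) by the two-sided quasi-likelihood test with Benjamini-Hochberg adjustment over all genes tested, threshold 0.05. The filter kept 10331 genes for 3 lines and 11760 for lines 240 and 352. Treatment was fitted with line as a block, since libraries with the same number are the same cell line. Deviations of the same line correlated at 0.67, 0.30 and 0.79. Lines were compared with treatment as a covariate. Ratios within a line used a prior count of 2, with Clopper-Pearson intervals of 95%. Exon lengths came from GENCODE vM21 and upstream sequences from RefSeq. Alternatives were other scalings, filters, DESeq2 1.42.0, limma 3.58.1, single lanes, thinning and left-out lines. Scripts were tested on simulated data. The text names all 10 genes, up to 4 genes past the threshold per list and fit, and the 3 genes closest to Rag1, Rag2 and Dntt. Some genes that this rule would name are not reported here. Members and lists were chosen with earlier results of these data known. Positions were read from the count tables (mm10) and made 1-based.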

Additional observations from a re-analysis of the deposited data

Results flagged for a closer look

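For 2 genes the change with PKF118-310 had opposite signs in different lines, with counting intervals on opposite sides of 0. Lig4 had a log2 ratio of PKF118-310 over control of 0.32 in line 240, against -1.16 in line 242 and -0.18 in line 352. Prkdc had 0.91 in line 242 and -0.12 in line 352, where the interval ended at -0.00059. In line 352 lane 1 held 494 Prkdc counts with PKF118-310 and 578 in the control, but lane 2 held 596 and 545. The interval leaves this lane difference out, so the sign of Prkdc in line 352 is not settled. With 1 library per line and group the difference between lines was not tested, and the intervals cover counting error only. Both larger changes involve the shallow PKF118-310 library of line 242. Groups of 3 are too small for a test of single outlying libraries.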

How the results depend on the processing

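Depth limits these data mainly through the PKF118-310 library of line 242, where Rag2 had 3 counts and Nhej1 1. For PKF118-310 over 3 lines the count of called genes stayed at 0 except without a filter on low counts (2, Rag1 and Dntt, with 312 of 28529 genes), and leaving out a line gave 0 to 1. In lines 240 and 352 the count of 1 became 0 with library totals, 0 with at least 10 counts in every library, 0 in DESeq2 and 0 without the replicate block, and 3 without a filter (Rag1, Xrcc6 and Dntt, with 1728 of 24986 genes). Over the 3 lines, the 1 difference between lines became 3 without a filter (3009 of 28529 genes), 3 in DESeq2 (1665 of 10331), 4 with the likelihood ratio test (2883), 5 with limma voom and library weights (4376), 7 without the PKF118-310 library of line 242 (6130 of 10819, chosen after seeing the data), 0 with at least 10 counts in every library, which drops Rag2, and 1 to 6 when a line was left out, 6 without line 242 (5257 of 11760 genes). For line 352 against line 240 the count of 6 became 3 without the treatment term. The cause of these differences was not tested. Other settings left the counts within 1.5 times.

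In the fits, signs turned for 5 genes, in none of which the difference was called. Over 3 lines Xrcc5 turned to -0.058 without a filter, -0.0013 in DESeq2 and -0.039 without the block, with -0.20 to 0.22 over left-out lines. Xrcc4 turned to -0.055 without a filter, -0.0022 with the likelihood ratio test, -0.095 in lane 1 and -0.23 with limma voom, and Prkdc to -0.030 in lane 1 and -0.053 with limma voom. Over left-out lines Prkdc ranged from -0.086 to 0.39, Lig4 from -0.68 to 0.046 and Xrcc4 from -0.20 to 0.22. In lines 240 and 352 Nhej1 turned to -0.43 in lane 1, Prkdc to 0.073 and Lig4 to -0.056 in lane 2, and for line 352 against line 240 Prkdc turned to -0.026 and Xrcc4 to -0.13 in lane 1. With all libraries thinned to 604984 counts in a single draw, 7 ratios within line 352 left the counting interval of their full counts. Among them were Dntt (-2.27), Rag2 (-0.01), Dclre1c (1.37), Prkdc (-0.53) and Xrcc5, which turned to -0.245 on 21 counts with PKF118-310 and 25 in the control. Some thinned counts were small, such as 19 and 6 for Dclre1c and 4 and 4 for Rag2. Thinning adds sampling error that these intervals leave out, so such moves do not tell how stable the full-depth ratios are. That single draw also turned Rag2 in line 242 (0.44) and Nhej1 in lines 240, 242 and 352 (-0.0088, 0.66 and -0.41), and library totals turned Rag1 in line 240 (-0.0094).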
